A study of Mus musculus with 18 samples.

Results

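Imprinted genes are transcribed from the copy inherited from one parent and are silent, or nearly so, on the other. The 36 described here are widely studied mouse imprinted genes, picked by symbol as known members of imprinted clusters and single imprinted loci. All 36 were found among the 25239 gene symbols of the table, and all 36 passed the filter on low counts that left 17545 genes to test. As known from mouse tissues, 22 of them are expressed from the paternal copy and 12 from the maternal copy. The remaining 2, Grb10 and Gnas, change with the tissue. The counts are per symbol and do not separate the parental copies, so a level says nothing of which copy it came from.

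RNA was sequenced from 18 libraries of mouse stem cells, 3 in each of 6 groups, that follow the passage from primed to naive pluripotency. EpiSC are the primed cells at day 0, and D3, D5 and D8 are the transient cells at days 3, 5 and 8. The rES are the naive cells reached at the end, and ESC are embryonic stem cells. The labels give the embryo as the source of every group and no genotype, strain, sex, medium, agent or clone for any of them, and they do not say whether rES and ESC share a genetic background. Nothing says that the 3 replicates of a group came from separate cultures, and p-values therefore cover the spread among these libraries alone, which may be technical.

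As background, each imprinted cluster is ruled by a control region that carries DNA methylation on one parental copy only, laid down in the egg or sperm. At many of these regions the copy without methylation makes a long noncoding RNA or binds the insulator protein CTCF, and neighbouring genes are switched on or off along that chromosome. After fertilisation the mark is kept by the zinc finger protein ZFP57, which recognises a methylated TGCCGC motif, with its partner TRIM28 and the maintenance methyltransferase DNMT1. Many imprinted genes regulate growth of the embryo and placenta, and cultured pluripotent cells are known to lose or gain marks at some of these loci.

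The members are placed on the assembly GRCm38, also called mm10, in positions from the GENCODE annotation vM21. The H19/Igf2 cluster holds Igf2 at chr7:142650766-142666816 and H19 at chr7:142575529-142578143. Farther along chromosome 7 the Kcnq1ot1 cluster holds Kcnq1ot1 at chr7:143203458-143296549, with Ascl2, Kcnq1, Cdkn1c, Slc22a18 and Phlda2 around it. The Peg3 cluster, with Peg3 at chr7:6703892-6730431, Usp29 and Zim1, and the Snrpn cluster, with Snrpn at chr7:59982495-60140219, Ndn, Magel2, Mkrn3 and Peg12, are on chromosome 7 too. Peg10 at chr6:4747306-4760517, Sgce and Ppp1r9a form the Peg10 cluster, and Meg3 at chr12:109541001-109571726, Dlk1, Rtl1, Rian and Mirg the Dlk1-Meg3 cluster. Igf2r at chr17:12682406-12769664 and Airn form the Igf2r cluster. The other 10 members stand at single or smaller loci.

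Bases upstream of starts are shown for 4 loci that the results turn on, 3 of them with the ZFP57 motif and the fourth a start region shared by Peg3 and Usp29. They are from RefSeq on GRCm38.p6, read 5′ to 3′. In the first 3, which are the 250 bases before the start of a transcript on the plus strand, capitals mark TGCCGC or its reverse complement GCGGCA. In the last, the plus strand between the starts of Peg3 and Usp29, which point away from each other, capitals mark CG, and neither form of the motif occurs in it.
Meg3, chr12:109540746-109540995, plus strand: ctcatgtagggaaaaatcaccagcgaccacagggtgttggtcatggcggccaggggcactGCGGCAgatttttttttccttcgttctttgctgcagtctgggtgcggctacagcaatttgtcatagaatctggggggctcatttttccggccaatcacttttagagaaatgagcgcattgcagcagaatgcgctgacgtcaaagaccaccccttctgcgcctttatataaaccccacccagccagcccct
Plagl1, chr10:13090582-13090831, plus strand: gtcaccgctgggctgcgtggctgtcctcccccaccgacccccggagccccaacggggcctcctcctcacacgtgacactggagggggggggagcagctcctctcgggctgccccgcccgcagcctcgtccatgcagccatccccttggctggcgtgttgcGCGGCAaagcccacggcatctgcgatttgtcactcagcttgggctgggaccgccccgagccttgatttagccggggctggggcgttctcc
Mest, chr6:30737800-30738049, plus strand: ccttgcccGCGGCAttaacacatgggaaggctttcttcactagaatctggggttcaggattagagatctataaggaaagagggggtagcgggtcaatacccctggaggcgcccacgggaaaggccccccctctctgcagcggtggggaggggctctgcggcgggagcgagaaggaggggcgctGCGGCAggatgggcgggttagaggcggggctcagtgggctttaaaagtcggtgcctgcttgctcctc
Peg3-Usp29, chr7:6730420-6730582, plus strand: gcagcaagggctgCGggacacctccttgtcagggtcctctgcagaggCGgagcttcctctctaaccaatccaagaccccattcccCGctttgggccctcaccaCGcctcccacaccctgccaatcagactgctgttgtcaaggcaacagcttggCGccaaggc
The Meg3 stretch holds 1 copy of the motif and 10 CG pairs, the Plagl1 stretch 1 copy and 19 CG pairs and the Mest stretch 2 copies and 14 CG pairs. The 163 bases between Peg3 and Usp29 hold 5 CG pairs. RefSeq windows running from 250 bases before a start to 50 after it were matched for 28 members. Of their 43 windows, 11 held the motif on either strand, or 25.58%, against 11.61% of all 32851 windows, where all windows held a median of 7 CG pairs and those of the members 14. The motif holds a CG itself, and the shares were not matched on CG content. A pair of Mest windows that overlap are both among the 11, and windows of Gnas, and of Peg3 with Usp29, overlap as well. The Meg3, Plagl1 and Mest stretches were taken from the window of each gene with the most copies of the motif. Another window of Meg3, chr12:109545148-109545447, and another of Mest, chr6:30733256-30733555, hold no copy. These matches are letters in a window, and no methylation or binding was measured here.

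Levels are CPM, counts scaled to a common library total, and differences are log2 differences with an approximate standard error. Libraries held 58.36 to 101.6 M deposited counts (M, megacounts), and a count of 12 in a library, taken as the floor, corresponded to 0.169 to 0.197 CPM over the groups. Within a group, log levels of any pair of libraries correlated at 0.9907 to 0.9973. The naive marker list summed to 59.1 to 65.5 CPM in EpiSC, 978 to 1866 CPM at D8, 4473 to 4538 CPM in rES and 4517 to 4563 CPM in ESC, and the primed list to 239 to 251 CPM in rES, against 1974 to 2159 CPM in EpiSC, so the labels and the markers go the same way. The D3, D5 and D8 libraries held other cell types' markers as well: 8 trophoblast genes summed to 1306 to 1419 CPM at D3, 967 to 1040 CPM at D5 and 713 to 887 CPM at D8, against 3.72 to 8.91 CPM in EpiSC, where Cdx2 was at 0. The genes of that sum did not move together. Cdx2 averaged 30.8 CPM at D3 and 1.77 CPM at D5, and Hand1 458, 39.7 and 12.1 CPM at D3, D5 and D8. Krt7 averaged 271, 407 and 403 CPM at D3, D5 and D8. Of the 9 list genes, Ascl2 included, 3 were called higher and 4 lower at D5 than at D3 (77.8%, against 59.5% of all genes). The 7 feeder fibroblast genes summed to 521 to 669 CPM at D3, 799 to 889 CPM at D5 and 997 to 1648 CPM at D8, against 38.6 to 54.5 CPM in EpiSC. At D3 Col1a1 alone averaged 404 CPM, while Postn and Lum averaged 0.887 and 0.725 CPM. Thy1 averaged 10.55 CPM in EpiSC, 38.3 CPM at D3 and 2.34 CPM at D5, and had 1.45, 1.09 and 1.41 CPM at D8. Of the 8 list genes, Dcn included, 7 were called higher and 1 lower than EpiSC at D5 and again at D8. Over all genes 72% and 76.8% were called. The 7 primitive endoderm genes summed to 50.02 to 54.76 CPM at D3, 61.69 to 67.58 CPM at D5 and 96.14 to 112.2 CPM at D8, against 7.11 to 8.70 CPM in EpiSC. The 6 mesoderm genes summed to 51.01 to 57.04 CPM at D3, 22.08 to 24.18 CPM at D5 and 20.77 to 25.57 CPM at D8, against 18.65 to 24.64 CPM in EpiSC. Of the 5 mesoderm genes tested, 1 was called higher and 3 lower than EpiSC at D5 and again at D8 (80%, against 72% and 76.8% of all genes). These are bulk libraries, so fewer cells of a type and less RNA per cell cannot be told apart, and the part of these cell types in the results on imprinted genes was not tested.

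The imprinted genes as a set took up far more of the transient libraries than of the others. They held 0.342% ± 0.0109 of all deposited counts in EpiSC, 2.83% ± 0.131 at D3, 3.58% ± 0.146 at D5, 3.24% ± 0.415 at D8, 0.108% ± 0.000872 in rES and 0.171% ± 0.00539 in ESC (SD, n = 3 each). Igf2 and Peg10 made up most of the transient share, and every transient library exceeded every other library. By group mean, 12 members were highest at D8, 9 in EpiSC, 8 at D3, 3 in ESC, 2 at D5 and 2 in rES. Compared per kilobase of exon, the most abundant members were Gnas and Grb10 in EpiSC, Igf2 and Phlda2 at D3, Peg10 and Igf2 at D5 and D8, Impact and Mest in rES and Mest and Peg10 in ESC.

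**Figure D1:**
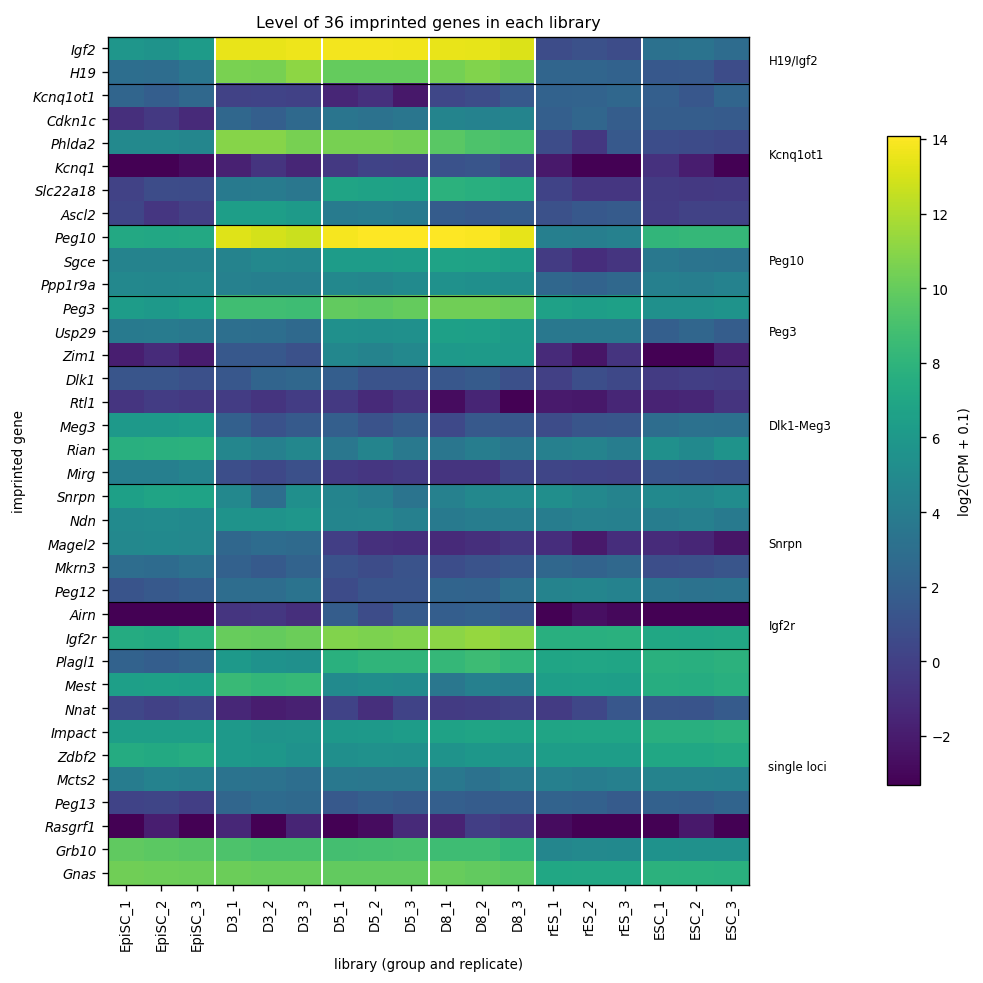
Level of each of the 36 imprinted genes (rows, by cluster) in each of the 18 libraries (columns), as log2 of CPM + 0.1 in colour. The brightest cells are Igf2 and Peg10 at D3, D5 and D8, and the Meg3, Rian and Mirg rows are brightest in EpiSC.

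The growth factor Igf2 and the noncoding RNA H19, which lie next to each other and compete for shared enhancers, both rose in the transient cells and were below the starting level in rES and ESC. Their folds over EpiSC were close at D3, while at D5 Igf2 was 227-fold and H19 112-fold above EpiSC. Igf2, a paternally expressed ligand of the IGF1 receptor, had 56.9, 49.1 and 74.8 CPM in EpiSC, 11489, 11859 and 12554 CPM at D3, 13778, 13712 and 13553 CPM at D5 and 11772, 11203 and 9278 CPM at D8. Igf2 in rES had 1.59, 1.88 and 1.55 CPM, and in ESC 8.86, 10.02 and 7.02 CPM. The transient libraries, EpiSC, ESC and rES formed separate ranges, in that order from high to low. At D3 Igf2 was 199-fold above EpiSC (log2 difference 7.63 ± 0.17, adjusted p = 3.85e-16). In rES it was below EpiSC (log2 difference -5.15 ± 0.17, adjusted p = 1.25e-14), and in ESC it was too (log2 difference -2.80 ± 0.14, adjusted p = 6.21e-12). H19, expressed from the maternal copy, had 7.74, 7.34 and 11.4 CPM in EpiSC, 1505, 1456 and 2254 CPM at D3, 989.97, 987 and 993 CPM at D5 and 1405, 1800.05 and 1388 CPM at D8. H19 in rES had 5.08, 5.10 and 4.38 CPM, and in ESC 2.72, 2.85 and 1.58 CPM. It was 196-fold above EpiSC at D3 (log2 difference 7.62 ± 0.25, adjusted p = 2.94e-14), and D5 stood below D3 (log2 difference -0.81 ± 0.18, adjusted p = 0.000976). Igf2 over H19, as a ratio of levels per kilobase of exon, averaged 2.95 in EpiSC, 3.06 at D3, 5.94 at D5, 3.05 at D8, 0.148 in rES and 1.61 in ESC, so rES alone held more H19 than Igf2 on that scale. Exons of Igf2 overlap those of the antisense gene Igf2os, which had 203 ± 10.1 CPM at D3, against 1.63 ± 0.737 CPM in EpiSC. No source used here states whether strand entered the counting, so reads of such overlapping exons may not be told apart.

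Igf2r, the maternally expressed receptor that takes up IGF2 for breakdown, rose with its ligand. It had 168, 153 and 208 CPM in EpiSC, 1029, 979 and 1177 CPM at D3, 1786, 1617 and 1732 CPM at D5 and 2109, 2509 and 2055 CPM at D8. Igf2r in rES had 199.6, 199.6 and 209.9 CPM, and in ESC 134, 126 and 141 CPM. All 9 transient libraries lay above all EpiSC, rES and ESC libraries. The log2 difference from EpiSC was 2.59 ± 0.11 at D3, 3.28 ± 0.11 at D5 and 3.66 ± 0.11 at D8 (adjusted p = 3.74e-15 at D8). Per kilobase of exon, Igf2 over Igf2r averaged 0.553 in EpiSC, 18.4 at D3, 13.02 at D5, 7.89 at D8, 0.0134 in rES and 0.106 in ESC. Airn, the paternal noncoding RNA that runs antisense through part of Igf2r and silences it on that copy, had no count in any EpiSC or ESC library. Its levels were 0.555, 0.597 and 0.399 CPM at D3, 3.42, 1.58 and 3.04 CPM at D5 and 3.65, 4.06 and 3.03 CPM at D8, at least 2.72-fold, 14.1-fold and 18.9-fold higher than EpiSC by the floor of 12 counts per library, a bound that covers counting error only. In rES it had 0, 4 and 2 counts, which is under the floor, so no fold is given. Airn and Igf2r overlap on opposite strands, though their annotated exons do not.

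In the Kcnq1ot1 cluster the maternally expressed protein genes rose in the transient cells while the noncoding RNA Kcnq1ot1, which silences them on the paternal copy, fell. At D3 the 5 maternal members, Kcnq1 among them on few counts, were all called higher than EpiSC and Kcnq1ot1 lower, and the same calls were made at D5 and D8. Phlda2, a pleckstrin homology domain protein that restrains placental growth, had 28.7, 29.01 and 25.4 CPM in EpiSC, 1912, 1903 and 1446 CPM at D3, 1463, 1449.8 and 1329 CPM at D5 and 807, 609 and 529 CPM at D8. Phlda2 in rES had 1.57, 0.610 and 2.74 CPM, and in ESC 1.65, 1.44 and 1.26 CPM. It was highest at D3 and fell at D8 relative to D5 (log2 difference -1.13 ± 0.23, adjusted p = 0.000647), and rES stood -4.04 ± 0.29 log2 from EpiSC and ESC -4.23 ± 0.29. Slc22a18, a membrane transporter of the organic cation family, had 0.963, 1.54 and 1.51 CPM in EpiSC, 14.4, 14.9 and 12.05 CPM at D3, 114, 105 and 100.1 CPM at D5 and 232, 200.1 and 178 CPM at D8. Slc22a18 in rES had 1.02, 0.577 and 0.582 CPM, and in ESC 0.700, 0.655 and 0.692 CPM. Its 3 transient groups climbed in order without overlap (log2 difference 2.95 ± 0.15, adjusted p = 2.02e-11 for D5 over D3 and log2 difference 0.93 ± 0.14, adjusted p = 2.44e-05 for D8 over D5). Ascl2, a transcription factor needed for spongiotrophoblast of the placenta, took the opposite course within the same cluster, with 1.12, 0.570 and 0.888 CPM in EpiSC, 87.5, 85.3 and 71.1 CPM at D3, 14.8, 16.9 and 14.2 CPM at D5 and 3.30, 2.87 and 3.32 CPM at D8. Ascl2 in rES had 1.91, 2.66 and 3.11 CPM, and in ESC 0.734, 0.999 and 1.00 CPM. It was -2.41 ± 0.18 log2 at D5 relative to D3 and -2.27 ± 0.18 at D8 relative to D5 (adjusted p = 1.96e-08).

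Cdkn1c, the cyclin-dependent kinase inhibitor p57, climbed at each step, with 0.417, 0.650 and 0.311 CPM in EpiSC, 5.60, 3.72 and 6.13 CPM at D3, 10.7, 9.44 and 11.4 CPM at D5 and 23.2, 21.04 and 22.6 CPM at D8. Cdkn1c in rES had 3.81, 5.28 and 3.41 CPM, and in ESC 3.49, 3.47 and 3.11 CPM. It stayed above EpiSC in rES (log2 difference 3.10 ± 0.25, adjusted p = 3.51e-09) and in ESC (log2 difference 2.79 ± 0.25, adjusted p = 1.63e-08), and rES and ESC were not told apart (log2 difference 0.31 ± 0.22, adjusted p = 0.29). Kcnq1ot1 itself had 4.90, 3.61 and 5.70 CPM in EpiSC, 0.962, 1.06 and 0.927 CPM at D3, 0.273, 0.441 and 0.118 CPM at D5 and 1.22, 1.52 and 2.84 CPM at D8. Kcnq1ot1 in rES had 4.24, 4.55 and 5.51 CPM, and in ESC 3.77, 2.59 and 5.11 CPM. Its D5 libraries were the lowest (log2 difference -3.95 ± 0.41, adjusted p = 9.47e-08), D8 was above D5 (log2 difference 2.61 ± 0.40, adjusted p = 3.42e-05), and neither rES nor ESC differed from EpiSC past the threshold (adjusted p = 1.0 and 0.462). Kcnq1, a potassium channel whose gene holds Kcnq1ot1 on the other strand, had counts too low for a fold, with a mean of 0.0156 CPM in EpiSC, 0.329 CPM at D3, 0.888 CPM at D5, 1.84 CPM at D8, 0.0424 CPM in rES and 0.210 CPM in ESC.

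**Figure D2:**
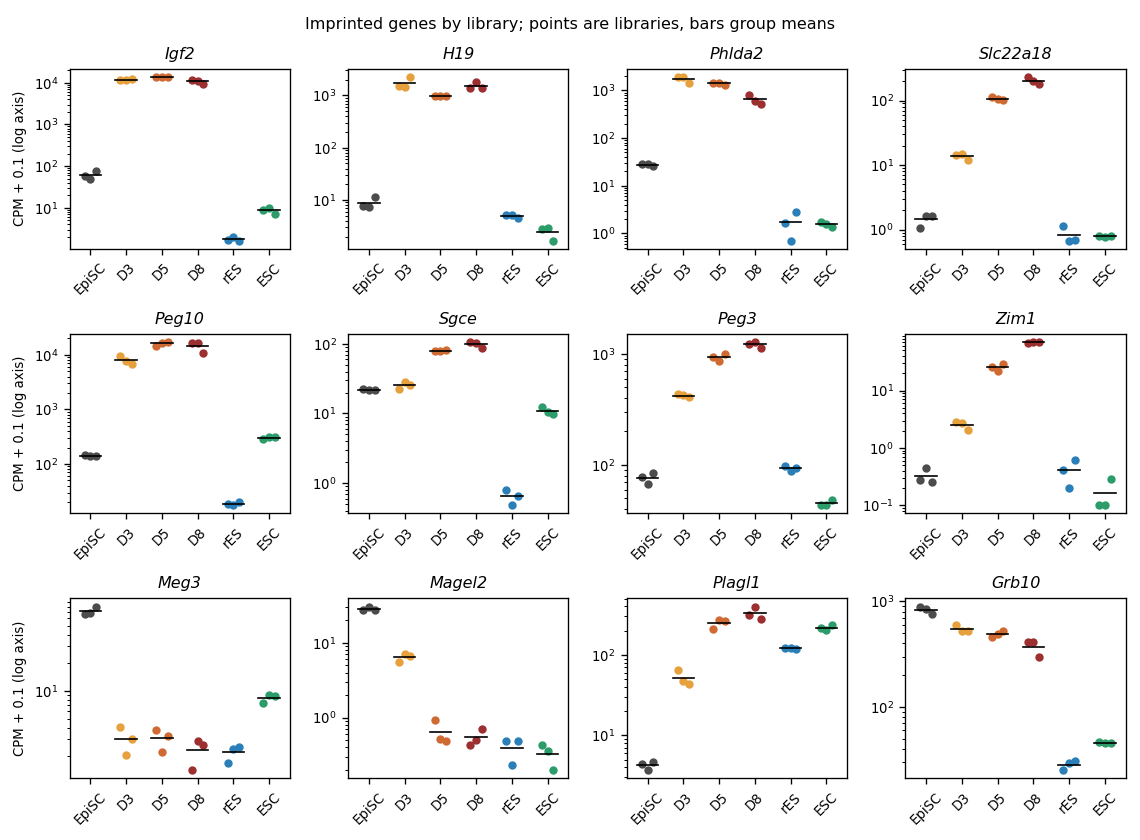
CPM + 0.1 of 12 imprinted genes on a log axis, 1 point per library and a bar at the mean of each group of 3, from EpiSC through D3, D5 and D8 to rES and ESC. Igf2, H19, Phlda2, Slc22a18, Peg10 and Peg3 stand highest in the transient groups, Meg3 and Magel2 in EpiSC, and Grb10 lowest in rES and ESC.

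At the Peg10 locus the neighbours went different ways at D3 and were jointly low in rES. Peg10, a retrotransposon-derived gene needed for the placenta, had 143, 137 and 142 CPM in EpiSC, 9436, 7854 and 6723 CPM at D3, 14613, 16518 and 17314 CPM at D5 and 16539, 16270.2 and 11015 CPM at D8. Peg10 in rES had 18.3, 17.4 and 20.1 CPM, and in ESC 286, 311 and 306 CPM. D3 was 56.8-fold above EpiSC (log2 difference 5.83 ± 0.16, adjusted p = 3.32e-15) and D5 was above D3 (log2 difference 1.01 ± 0.13, adjusted p = 2.33e-06). Sgce, which codes for epsilon-sarcoglycan and is paternally expressed from a start close to that of Peg10 on the other strand, had 22.2, 21.9 and 21.5 CPM in EpiSC, 22.2, 27.9 and 25.9 CPM at D3, 78.1, 78.6 and 80.4 CPM at D5 and 107, 103 and 87.3 CPM at D8. Sgce in rES had 0.699, 0.379 and 0.551 CPM, and in ESC 12.4, 10.3 and 9.78 CPM. At D3 it was not called (log2 difference 0.22 ± 0.12, adjusted p = 0.123), although without D3 replicate 1 it was (adjusted p = 0.0432), and at D5 it was higher (log2 difference 1.85 ± 0.12, adjusted p = 1.41e-10). All 3 rES libraries were below 1 CPM, far under every EpiSC and ESC library. Per kilobase of exon, Peg10 over Sgce averaged 10.3 in EpiSC, 512 at D3, 325 at D5, 232 at D8, 57.6 in rES and 44.8 in ESC. Ppp1r9a, the maternally expressed neurabin gene, moved less in the transient cells, with 27.2, 26.2 and 28.4 CPM in EpiSC, 19.6, 18.3 and 17.7 CPM at D3, 28.3, 25.3 and 31.3 CPM at D5 and 44.7, 40.98 and 37.4 CPM at D8. Ppp1r9a in rES had 5.43, 4.47 and 5.77 CPM, and in ESC 19.2, 17.3 and 20.6 CPM. Ppp1r9a was called lower than EpiSC at D3, was not called at D5 and was called higher at D8. It fell in rES relative to EpiSC (log2 difference -2.38 ± 0.12, adjusted p = 3.58e-12).

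Peg3 and Usp29, paternal genes that start on opposite strands from the short stretch printed above, parted at D3 and rose together afterwards. Peg3, a zinc finger protein, had 77.4, 67.5 and 85.1 CPM in EpiSC, 432, 427 and 405 CPM at D3, 941, 872 and 995 CPM at D5 and 1238, 1286 and 1124 CPM at D8. Peg3 in rES had 97.2, 88.3 and 93.4 CPM, and in ESC 43.1, 43.3 and 48.00 CPM. Usp29, of the deubiquitinase family, had 14.02, 14.97 and 12.1 CPM in EpiSC, 8.01, 7.66 and 6.22 CPM at D3, 42.8, 41.1 and 42.99 CPM at D5 and 93.2, 89.8 and 71.7 CPM at D8. Usp29 in rES had 12.7, 12.6 and 12.6 CPM, and in ESC 3.77, 5.22 and 3.33 CPM. At D3 Peg3 was higher than EpiSC (log2 difference 2.46 ± 0.09, adjusted p = 6.67e-14) and Usp29 lower (log2 difference -0.91 ± 0.14, adjusted p = 2.12e-05). At D5 both were higher than at D3 (1.15 ± 0.08 log2 for Peg3 and 2.53 ± 0.15 for Usp29), and at D8 both were higher than at D5 (0.38 ± 0.08 and 1.00 ± 0.14). Zim1, a maternal zinc finger gene beside Peg3, had 0.177, 0.349 and 0.156 CPM in EpiSC, 2.72, 2.66 and 1.92 CPM at D3, 25.99, 22.1 and 28.3 CPM at D5 and 67.9, 70.7 and 68.7 CPM at D8. Zim1 in rES had 0.318, 0.0990 and 0.505 CPM, and in ESC 0, 0 and 0.184 CPM. Its D8 libraries exceeded every D5 library, which exceeded every D3 library (log2 difference 3.37 ± 0.32, adjusted p = 6.08e-08 for D5 over D3). Usp29 shares exon sequence on the other strand with Zim3.

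The maternal noncoding RNAs of the Dlk1-Meg3 cluster fell in every other group relative to EpiSC. Meg3, a long noncoding RNA, had 66.6, 67.7 and 80.3 CPM in EpiSC, 3.96, 1.94 and 2.95 CPM at D3, 3.72, 2.09 and 3.19 CPM at D5 and 1.30, 2.75 and 2.50 CPM at D8. Meg3 in rES had 1.57, 2.28 and 2.37 CPM, and in ESC 7.30, 8.83 and 8.58 CPM. Rian, which hosts small nucleolar RNAs and microRNAs, had 199, 207 and 222 CPM in EpiSC, 25.1, 19.1 and 26.6 CPM at D3, 12.1, 22.8 and 12.9 CPM at D5 and 11.2, 16.8 and 10.7 CPM at D8. Rian in rES had 19.4, 22.4 and 16.9 CPM, and in ESC 42.3, 31.1 and 48.8 CPM. Mirg, a microRNA host, had 18.01, 18.02 and 22.9 CPM in EpiSC, 1.70, 1.28 and 1.80 CPM at D3, 0.674, 0.572 and 0.691 CPM at D5 and 0.505, 0.519 and 1.15 CPM at D8. Mirg in rES had 1.14, 1.06 and 0.980 CPM, and in ESC 2.28, 2.05 and 1.91 CPM. In each of these 3 genes every EpiSC library lay above every library of the other groups. The log2 difference of Meg3 from EpiSC was -4.59 ± 0.29 at D3, -4.56 ± 0.29 at D5, -5.00 ± 0.29 at D8, -5.09 ± 0.30 in rES and -3.11 ± 0.27 in ESC (adjusted p at most 8.80e-09). The same values were -3.15 ± 0.24, -3.72 ± 0.24, -4.01 ± 0.25, -3.42 ± 0.24 and -2.36 ± 0.23 for Rian, and -3.60 ± 0.27, -4.86 ± 0.29, -4.72 ± 0.29, -4.17 ± 0.28 and -3.22 ± 0.26 for Mirg. The paternal genes of the cluster were low throughout: Dlk1, a membrane protein related to Notch ligands, had 2.28, 2.25 and 1.79 CPM in EpiSC, 2.56, 4.77 and 5.57 CPM at D3, 3.55, 2.11 and 2.09 CPM at D5 and 2.51, 3.06 and 1.76 CPM at D8. Dlk1 in rES had 0.890, 1.70 and 1.26 CPM, and in ESC 0.700, 0.819 and 0.749 CPM. It was called higher at D3 (log2 difference 1.02 ± 0.33, adjusted p = 0.0115), a call lost without D3 replicate 3 (adjusted p = 0.0662), and lower in ESC (log2 difference -1.44 ± 0.34, adjusted p = 0.00113). Rtl1, a retrotransposon-derived gene with microRNAs on its other strand, averaged 0.648 CPM in EpiSC, 0.670 CPM at D3, 0.492 CPM at D5, 0.101 CPM at D8, 0.173 CPM in rES and 0.335 CPM in ESC, and only D8 was called different from EpiSC (adjusted p = 0.0118), on 3, 25 and 0 counts at D8, against 33, 48 and 42 in EpiSC.

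In the Snrpn cluster, whose members are all paternal and lie in the mouse counterpart of the Prader-Willi region, EpiSC held the highest level of 3 of the 5 genes. Magel2, a MAGE family regulator of ubiquitin ligases, fell at D3 and again at D5, with 27.6, 30.4 and 27.2 CPM in EpiSC, 5.50, 6.99 and 6.50 CPM at D3, 0.834, 0.425 and 0.388 CPM at D5 and 0.326, 0.407 and 0.613 CPM at D8. Its D5 and D8 libraries overlapped. Magel2 in rES had 0.381, 0.132 and 0.383 CPM, and in ESC 0.334, 0.262 and 0.0989 CPM. It was lower at D3 (log2 difference -2.16 ± 0.30, adjusted p = 6.06e-06), lower again at D5 than at D3 (log2 difference -3.45 ± 0.34, adjusted p = 1.10e-07), and in rES and ESC below 1 CPM in every library. Snrpn, a splicing protein, had 96.8, 113 and 112 CPM in EpiSC, 27.4, 7.27 and 40.6 CPM at D3, 22.8, 18.1 and 10.1 CPM at D5 and 19.6, 28.3 and 32.1 CPM at D8. Snrpn in rES had 39.3, 27.8 and 21.6 CPM, and in ESC 30.1, 25.9 and 35.6 CPM. Its exons are shared with Snurf on the same strand, so reads of the pair can go to either symbol. Snrpn plus Snurf averaged 123 ± 14.4 CPM in EpiSC, 51.4 ± 15.8 CPM at D3, 24.5 ± 8.17 CPM at D5, 40.0 ± 4.27 CPM at D8, 49.3 ± 20.4 CPM in rES and 41.8 ± 10.7 CPM in ESC (SD, n = 3 each). Summed in this way, which was decided after seeing the data, the log2 difference of D3 from EpiSC was -1.25, against -2.09 for Snrpn alone. Ndn, another MAGE gene, had 31.3, 33.4 and 30.5 CPM in EpiSC, 48.6, 50.1 and 57.5 CPM at D3, 24.4, 24.7 and 19.1 CPM at D5 and 13.6, 16.8 and 16.5 CPM at D8. Ndn in rES had 16.7, 19.6 and 18.8 CPM, and in ESC 16.7, 18.8 and 14.5 CPM. It was higher at D3 (log2 difference 0.71 ± 0.12, adjusted p = 5.07e-05) and lower at D8 (log2 difference -1.02 ± 0.12, adjusted p = 5.87e-07). Peg12, a relative of FRAT proteins of the Wnt pathway, was the cluster's exception in the naive cells, with 2.25, 2.85 and 3.64 CPM in EpiSC, 7.34, 7.19 and 9.85 CPM at D3, 1.48, 2.22 and 2.16 CPM at D5 and 4.79, 4.51 and 7.97 CPM at D8. Peg12 in rES had 22.4, 23.8 and 20.8 CPM, and in ESC 10.7, 9.14 and 9.65 CPM. It was higher than EpiSC in rES (log2 difference 2.92 ± 0.24, adjusted p = 3.69e-09) and ESC (log2 difference 1.74 ± 0.23, adjusted p = 2.47e-06). Mkrn3, a makorin ring finger protein, averaged 1.89 ± 0.265 CPM at D5, against 7.71 ± 1.13 CPM in EpiSC, and it was called lower than EpiSC in all 5 comparisons, in rES only by -0.54 ± 0.22 log2 (adjusted p = 0.0393), a call lost with other scaling and without each of 5 of the 6 libraries (adjusted p = 0.0530 to 0.154 where lost).

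Among the single loci, Plagl1, a growth-restraining zinc finger transcription factor, rose in the transient cells and stayed well above EpiSC in the naive ones. It had 4.27, 3.60 and 4.59 CPM in EpiSC, 64.3, 47.1 and 42.98 CPM at D3, 212, 271 and 262 CPM at D5 and 310.2, 398 and 279 CPM at D8. Plagl1 in rES had 121, 123 and 119 CPM, and in ESC 215, 205 and 235 CPM. No other group overlapped EpiSC, and the log2 difference was 3.62 ± 0.17 at D3, 5.89 ± 0.18 at D5, 6.30 ± 0.18 at D8, 4.86 ± 0.17 in rES and 5.70 ± 0.18 in ESC. Mest, a hydrolase-like protein, peaked early and then fell below the start, with 92.3, 95.04 and 87.8 CPM in EpiSC, 354, 294 and 330.5 CPM at D3, 31.5, 37.3 and 33.3 CPM at D5 and 11.9, 19.1 and 16.7 CPM at D8. Mest in rES had 87.2, 90.97 and 87.8 CPM, and in ESC 179.7, 175 and 198 CPM. It was higher at D3 (log2 difference 1.83 ± 0.12, adjusted p = 3.97e-10), lower at D8 (log2 difference -2.52 ± 0.13, adjusted p = 3.38e-12), and rES did not differ from EpiSC past the threshold (adjusted p = 0.74). Mest overlaps exons of Copg2 on the other strand.

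Grb10, an adaptor that dampens insulin and IGF signalling, and Gnas, the stimulatory G protein alpha subunit locus, were among the most abundant members in EpiSC and lowest in rES. Grb10 had 895, 842 and 759.5 CPM in EpiSC, 600.2, 528 and 526 CPM at D3, 462, 491 and 526 CPM at D5 and 416, 410.1 and 295 CPM at D8. Grb10 in rES had 25.1, 29.2 and 30.4 CPM, and in ESC 46.6, 45.2 and 45.4 CPM. Gnas had 1260.3, 1237 and 1149.6 CPM in EpiSC, 1134, 1053 and 1028 CPM at D3, 944, 947 and 954 CPM at D5 and 1046, 965 and 821 CPM at D8. Gnas in rES had 130.03, 135 and 141 CPM, and in ESC 232, 220.3 and 207 CPM. Grb10 was -1.15 ± 0.11 log2 from EpiSC at D8 but -4.88 ± 0.13 in rES and -4.18 ± 0.12 in ESC, and Gnas -0.36 ± 0.08, -3.16 ± 0.08 and -2.47 ± 0.08. The Gnas fall at D3 (log2 difference -0.18 ± 0.08, adjusted p = 0.0433) was lost with other scaling and in 4 of the 6 fits that left out a library (adjusted p = 0.106 to 0.134 in those 4). Symbol-level counts do not separate the several promoters of Gnas.

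Of the other single loci, Zdbf2, a zinc finger gene, averaged 41.97 ± 2.27 CPM at D5 and 82.1 ± 0.908 CPM in rES, against 165 ± 13.4 CPM in EpiSC, and was called lower than EpiSC in the transient groups and rES. Impact, a regulator of translation through the kinase GCN2, averaged 57.02 ± 8.87 CPM at D3 and 212 ± 19.2 CPM in ESC, against 85.5 ± 1.71 CPM in EpiSC, and ESC was the highest group (log2 difference 1.31 ± 0.10, adjusted p = 2.27e-09). Peg13, a noncoding RNA within an intron of Trappc9, averaged 5.94 ± 0.617 CPM at D3, against 1.00 ± 0.167 CPM in EpiSC, and was called higher in all 5 comparisons with EpiSC. Mcts2, a retrogene copy within H13 that resembles its parent gene Mcts1, averaged 8.92 ± 1.17 CPM at D3, against 18.5 ± 2.70 CPM in EpiSC (log2 difference -1.05 ± 0.14, adjusted p = 2.22e-06). Nnat, a small membrane protein gene within an intron of Blcap, averaged 0.215 ± 0.0561 CPM at D3 and 2.52 ± 0.439 CPM in ESC, against 1.11 ± 0.163 CPM in EpiSC, with D3 lower (adjusted p = 0.000385). Rasgrf1, a Ras exchange factor, stayed under the floor in every group but D8, where it averaged 0.557 CPM.

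Counted over all 36 members against EpiSC, D3 had 18 called higher and 15 lower. That is 91.7% of them, against 64.2% of all genes tested, of which 34.1% were higher and 30.2% lower. D5 had 16 higher and 15 lower, or 86.1%, against 72% of all genes, 37.7% higher and 34.3% lower. D8 had 19 higher and 14 lower, or 91.7%, against 76.8% of all genes, 42.4% higher and 34.5% lower. The rES had 8 higher and 17 lower, or 69.4%, against 69.4% of all genes, 31.9% higher and 37.5% lower. ESC had 9 higher and 19 lower, or 77.8%, against 67.3% of all genes, 31.2% higher and 36.1% lower. The share called in rES equals that of all genes. Airn, among the 8 higher calls in rES, was under the floor in both groups. Kcnq1, among the 9 higher calls in ESC, had 28, 10 and 0 counts there, against 0, 0 and 3 in EpiSC. Its call was lost with the replicate block, with counts divided by 4, and without EpiSC replicate 1, EpiSC replicate 2 or ESC replicate 1. The median log2 difference of the members was 0.87 at D3, 0.17 at D5 and 0.78 at D8, and -0.75 in rES and -0.83 in ESC, beside 0.00, 0.02, 0.18, -0.09 and -0.07 over all genes tested. These medians were the same with Airn, which had no count in EpiSC, set at its bound. The 5 comparisons share the EpiSC libraries.

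**Figure D3:**
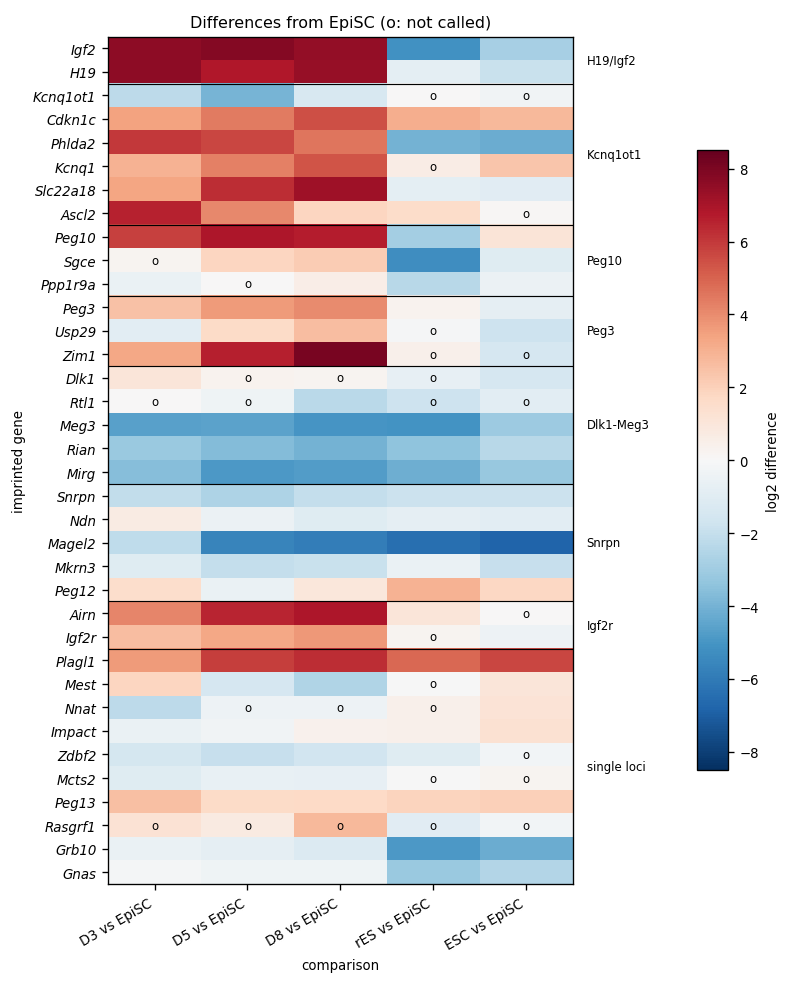
Log2 difference of each of the 36 imprinted genes (rows, by cluster) from EpiSC at D3, D5, D8, rES and ESC (columns), red where higher and blue where lower than EpiSC, with a circle where the adjusted p was not below 0.05. The H19/Igf2, Kcnq1ot1, Peg3 and Igf2r rows are mostly red at D3 to D8, and the Meg3, Rian and Mirg rows blue in every column.

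Set apart by the parental copy known to be expressed, more maternal members were called higher than lower in the transient cells, and more lower than higher in the naive ones. Of the 12 maternal members, 8 were called higher and 4 lower at D3, 8 and 3 at D5, 9 and 3 at D8, 2 and 7 in rES and 2 and 8 in ESC. Those called either way were 100% of the maternal members at D3, 91.7% at D5, 100% at D8, 75% in rES and 83.3% in ESC, against 64.2%, 72%, 76.8%, 69.4% and 67.3% of all genes. Over all genes 34.1%, 37.7% and 42.4% were higher at D3, D5 and D8, and 37.5% and 36.1% lower in rES and ESC. The maternal members called higher in ESC include Kcnq1, whose call on few counts was lost in several alternatives. Of the 22 paternal members, 10 were called higher and 9 lower at D3, 8 and 10 at D5, 10 and 9 at D8, 6 and 8 in rES and 7 and 9 in ESC, or 86.4%, 81.8%, 86.4%, 63.6% and 72.7% called either way. Some maternal members lie close together, 5 of the 12 in the Kcnq1ot1 cluster and 3 in the Dlk1-Meg3 cluster, so they are not independent of each other. The median log2 difference at D8 was 4.10 for maternal and 0.28 for paternal members, and in rES -0.86 and -0.33. The difference between the alleles was not tested.

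Within the transient days the changes were uneven between clusters. From D3 to D5, 14 members were called higher and 12 lower (72.2%, against 59.5% of all genes, 29.9% higher and 29.6% lower). These calls had all 3 members of the Peg10 cluster and all 3 of the Peg3 cluster higher and 4 of the 5 in the Snrpn cluster lower. Magel2 and Mest fell most at that step (-3.45 ± 0.34 and -3.26 ± 0.13 log2). Between D5 and D8, 14 were called higher and 7 lower (58.3%, against 47.1% of all genes, 25.1% higher and 22% lower), again with all 3 of the Peg3 cluster higher. The Rtl1 call (log2 difference -1.94 ± 0.76, adjusted p = 0.0448) was lost with other scaling, without the filter on low counts, with the replicate block, with both groups fitted alone and without any of 4 libraries in turn (adjusted p = 0.051 to 0.131 where lost). That of Plagl1 was lost without D5 replicate 1 or D8 replicate 2 (adjusted p = 0.123 and 0.177), and that of H19 without D8 replicate 2 (adjusted p = 0.0528). That of Sgce was lost without any of 5 libraries in turn, and that of Igf2 (log2 difference -0.35 ± 0.13, adjusted p = 0.034) without any of 4 and with other scaling.

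The passage from D8 to rES carried the widest falls. Of the 36 members 7 were called higher and 19 lower in rES than at D8 (72.2%, against 71.1% of all genes, 32.7% higher and 38.4% lower). Called differences of at least 2-fold numbered 22 of the 36 members, against 7872 of the 17545 genes tested (44.9%). Igf2 had 1.59, 1.88 and 1.55 CPM in rES, against 11772, 11203 and 9278 CPM at D8 (log2 difference -12.63 ± 0.21, adjusted p = 5.72e-18). Peg10 had 18.3, 17.4 and 20.1 CPM in rES, against 16539, 16270.2 and 11015 CPM at D8 (log2 difference -9.61 ± 0.19, adjusted p = 3.29e-17). Phlda2, H19, Slc22a18, Zim1 and Sgce fell by 7 log2 units or more as well (-8.59 ± 0.33, -8.29 ± 0.26, -8.07 ± 0.20, -7.66 ± 0.41 and -7.43 ± 0.17). Kcnq1ot1, Rian, Mkrn3, Peg12, Mest, Zdbf2 and Mcts2 were higher in rES than at D8, Mest by 2.48 ± 0.13 log2, the Rian call being lost without any of 4 libraries in turn. The trophoblast marker sum was 167 to 173 CPM in rES, against 713 to 887 CPM at D8. Tfap2c made up nearly all of the rES sum, with 166, 161 and 164 CPM. It had 182, 171 and 186 CPM at D8 and 86.1, 77.1 and 85.4 CPM in ESC. The feeder fibroblast sum was 16.8 to 20.9 CPM in rES, against 997 to 1648 CPM at D8. The part of these cell types in the falls of the members was not tested.

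Whether the naive cells that came out of the transition matched ESC at these loci was asked with rES against ESC. The Peg10 cluster was lower in rES and the paternal pair Peg3 and Usp29 higher, and the Dlk1-Meg3 noncoding RNAs were lower still than in ESC. Of the 36 members 9 were called higher and 13 lower (61.1%, against 33.5% of all genes tested, 15.6% higher and 17.9% lower). Called differences of at least 2-fold numbered 15 of the 36 members, against 1478 of the 17545 genes tested (8.42%). The members were chosen with earlier results of these data known, and the clusters hold linked genes, so these shares are a description. The median log2 difference was -0.19 over the members and 0.00 over all genes.

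Sgce differed most, with 0.699, 0.379 and 0.551 CPM in rES, against 12.4, 10.3 and 9.78 CPM in ESC (log2 difference -4.24 ± 0.16, adjusted p = 1.20e-11). Peg10 had 18.3, 17.4 and 20.1 CPM in rES, against 286, 311 and 306 CPM in ESC (log2 difference -4.01 ± 0.15, adjusted p = 8.90e-12). Ppp1r9a, the maternal member beside them, had 5.43, 4.47 and 5.77 CPM in rES, against 19.2, 17.3 and 20.6 CPM in ESC (log2 difference -1.86 ± 0.12, adjusted p = 3.23e-09). In these 3 genes no rES library reached the lowest ESC library. In the Peg3 cluster, Peg3 had 97.2, 88.3 and 93.4 CPM in rES, against 43.1, 43.3 and 48.00 CPM in ESC (log2 difference 1.05 ± 0.08, adjusted p = 5.28e-08). Usp29 had 12.7, 12.6 and 12.6 CPM in rES, against 3.77, 5.22 and 3.33 CPM in ESC (log2 difference 1.61 ± 0.15, adjusted p = 3.03e-07). Zim1 had 20, 6 and 33 counts in rES, against 0, 0 and 13 in ESC, so its groups overlapped. Its call was lost in 4 of the 6 fits that left out a library and with the 2 groups fitted alone (adjusted p = 0.138). The paternal pair thus had the same direction, and the maternal gene Zim1 lay too near the floor to add to it.

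At H19/Igf2 the genes of the pair went apart. Igf2 had 1.59, 1.88 and 1.55 CPM in rES, against 8.86, 10.02 and 7.02 CPM in ESC (log2 difference -2.35 ± 0.16, adjusted p = 1.05e-08). H19 had 5.08, 5.10 and 4.38 CPM in rES, against 2.72, 2.85 and 1.58 CPM in ESC (log2 difference 1.03 ± 0.22, adjusted p = 0.0017). Both genes were a small fraction of their level in the transient cells. Meg3 had 1.57, 2.28 and 2.37 CPM in rES, against 7.30, 8.83 and 8.58 CPM in ESC (log2 difference -1.97 ± 0.27, adjusted p = 2.47e-05), and Rian and Mirg were lower as well (-1.06 ± 0.22 and -0.95 ± 0.26 log2). Of the Snrpn cluster, Mkrn3 (log2 difference 1.41 ± 0.23, adjusted p = 0.000139) and Peg12 (log2 difference 1.18 ± 0.22, adjusted p = 0.000477) were higher in rES and the other 3 were not called. In the Kcnq1ot1 cluster Ascl2 was called higher (log2 difference 1.45 ± 0.21, adjusted p = 3.67e-05) and the other 5 were not called.

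The single loci that differed all lay lower in rES. Their log2 differences were -1.06 ± 0.12 for Mest, -0.85 ± 0.14 for Plagl1, -0.85 ± 0.10 for Impact, -0.77 ± 0.10 for Zdbf2, -0.70 ± 0.11 for Grb10 and -0.70 ± 0.08 for Gnas, with adjusted p at most 0.000186. Igf2r was higher (log2 difference 0.61 ± 0.10, adjusted p = 0.000175). Airn counts among the 9 higher calls with 0, 4 and 2 counts in rES, against none in ESC, both under the floor. The ESC libraries held more of the feeder fibroblast markers: their sum was 16.8 to 20.9 CPM in rES, against 135 to 179 CPM in ESC, with 6 of the 8 list genes, Dcn included in the list, called lower and none higher. Col1a1 averaged 2.92 CPM in rES, against 79.2 CPM in ESC. Several members are expressed in fibroblasts, and the part of such cells in the members that were lower in rES was not tested.

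**Figure D4:**
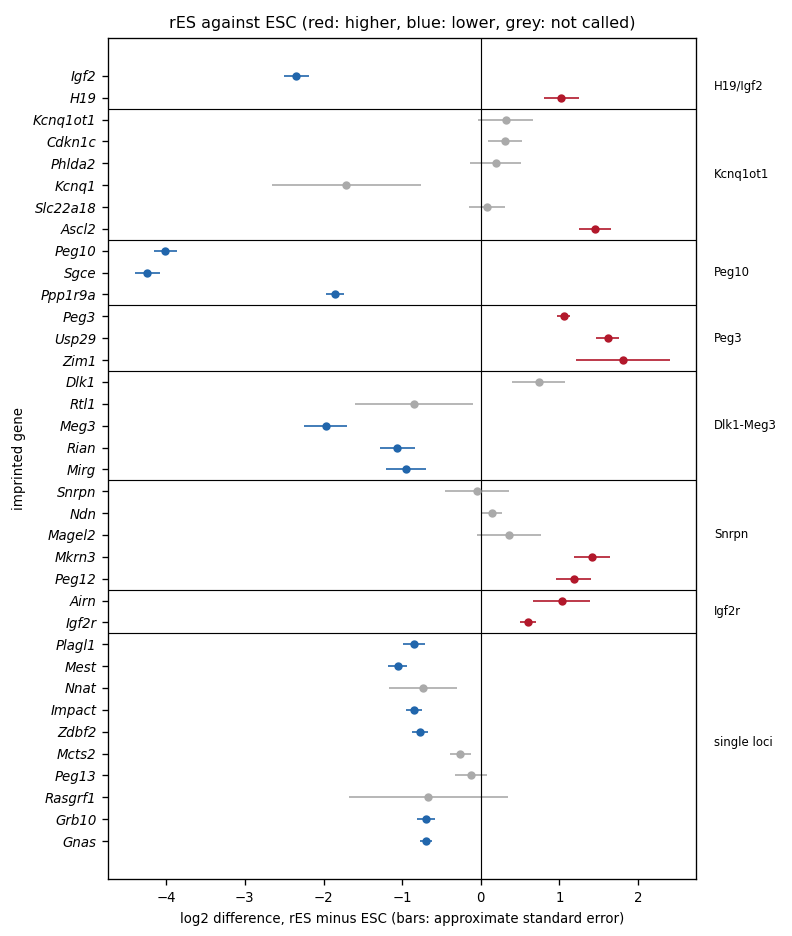
Log2 difference of rES minus ESC for each of the 36 imprinted genes, by cluster from top to bottom, with bars of 1 approximate standard error; red points were called higher in rES, blue lower, and grey were not called. The 3 genes of the Peg10 cluster lie left of zero and the 3 of the Peg3 cluster right of it.

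Other imprinted genes, 38 of a list of 40 found in the table and 37 of them tested, had 20 called higher and 9 lower at D3, 20 and 7 at D5, 24 and 9 at D8, 16 and 12 in rES and 17 and 11 in ESC, all against EpiSC. That is 78.4%, 73%, 89.2%, 75.7% and 75.7% called either way, against 64.2%, 72%, 76.8%, 69.4% and 67.3% of all genes, so the D5 share was close to that of all genes. Of all genes 34.1%, 37.7% and 42.4% were higher at D3, D5 and D8, and no lean of this list was tested. Sfmbt2, a polycomb protein imprinted in trophoblast, averaged 554 ± 58.5 CPM at D3, against 4.20 ± 0.895 CPM in EpiSC (log2 difference 7.03 ± 0.15, adjusted p = 3.23e-16). Slc22a3, an organic cation transporter beside Igf2r that is imprinted in placenta, averaged 255 ± 61.8 CPM at D8, against 0.0264 CPM in EpiSC. Calcr, the calcitonin receptor at the Peg10 locus, was low in every group but EpiSC. It averaged 83.99 ± 7.45 CPM in EpiSC, 1.06 CPM at D3, 0.415 CPM at D5, 0.338 CPM at D8, 0.0371 CPM in rES and 0.127 CPM in ESC. Between rES and ESC 7 were called higher and 6 lower, or 35.1%, close to the 33.5% of all genes.

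Of 19 genes that keep imprints or write and erase DNA methylation, 5 were called higher and 11 lower than EpiSC at D3, 6 and 11 at D5, 6 and 9 at D8, 12 and 5 in rES and 13 and 5 in ESC. That is 84.2%, 89.5%, 78.9%, 89.5% and 94.7% called, against 64.2%, 72%, 76.8%, 69.4% and 67.3% of all genes, so the D8 share was close to that of all genes. Zfp57 had 9.83, 10.4 and 10.4 CPM in EpiSC, 4.08, 4.02 and 4.45 CPM at D3, 0.690, 0.735 and 1.16 CPM at D5 and 6.79, 7.86 and 12.9 CPM at D8. Zfp57 in rES had 20.3, 22.1 and 25.2 CPM, and in ESC 36.8, 30.2 and 39.4 CPM. It was lower than EpiSC at D3 (log2 difference -1.28 ± 0.20, adjusted p = 2.35e-05) and back up at D8 relative to D5 (log2 difference 3.37 ± 0.23, adjusted p = 3.23e-09). Trim28 had 1432, 1524 and 1458 CPM in EpiSC, 959, 934 and 910 CPM at D3 and 465, 471 and 480 CPM at D5. Dnmt1 went the other way, with 313, 311 and 372 CPM in EpiSC, 486, 485 and 524 CPM at D3 and 504, 442 and 428 CPM at D5. At D8 Dnmt1 had 292, 287 and 353 CPM. The oxidase gene Tet1 had its lowest level at D5, as Zfp57 did, 8.91 ± 1.89 CPM, against 117 ± 8.30 CPM in EpiSC (log2 difference -3.72 ± 0.23, adjusted p = 5.39e-11). The other oxidase genes went the other way at D5. Tet3 had 270, 218 and 240 CPM at D5, against 45.2, 41.6 and 53.1 CPM in EpiSC. Tet2 had 15.2, 16.3 and 17.9 CPM at D5, against 7.40, 5.67 and 7.21 CPM in EpiSC. Dnmt3b, a de novo methyltransferase, was lower than EpiSC in every other group, with 38.3 ± 2.58 CPM at D5, against 1248 ± 46.3 CPM in EpiSC. Dppa3, which protects methylation in the early embryo and limits the action of UHRF1, averaged 76.6 ± 2.28 CPM in rES, against 18.9 ± 1.74 CPM in ESC (log2 difference 2.02 ± 0.30, adjusted p = 4.97e-05). Tet2, another oxidase gene, averaged 49.5 ± 7.57 CPM in rES, against 117 ± 6.27 CPM in ESC (log2 difference -1.24 ± 0.26, adjusted p = 0.00121). Dnmt3b averaged 138 ± 4.12 CPM in rES, against 71.5 ± 2.12 CPM in ESC (log2 difference 0.95 ± 0.09, adjusted p = 3.45e-07). Between rES and ESC 3 of the 19 were called higher and 5 lower, or 42.1%, against 33.5% of all genes.

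**Figure D5:**
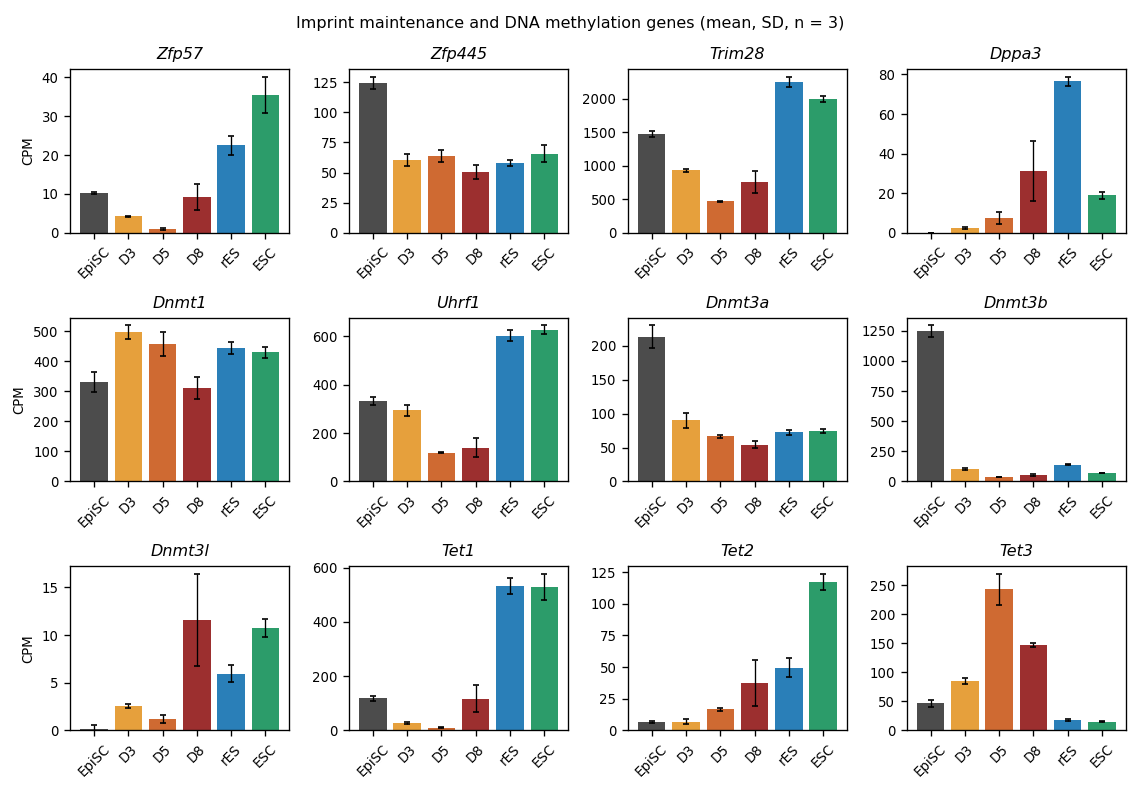
CPM of 12 of the 19 genes that keep imprints or write and erase DNA methylation, as the mean of 3 libraries with SD bars, from EpiSC through D3, D5 and D8 to rES and ESC. Zfp57 and Tet1 are lowest at D5, Tet3 is highest at D5, and Dnmt3b is highest in EpiSC.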

How the data were processed

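RNA was measured in 18 libraries of mouse stem cells, 3 per group. Per the labels' protocols, ribosomal RNA was removed with probes and RNase H, second strands were digested, and paired reads of 150 bases were sequenced. Per the submitters' processing notes, the authors used bcl2fastq, Trim Galore, HISAT2 and the build mm10. Which program and annotation made the counts, and whether strand was used, is not given in the sources used here. The deposited table holds expected counts as whole numbers per gene symbol, not scaled between libraries. Low values bunch at 4 and 8, so the floor was set at 12 counts per library, that is 3 units of 4.

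Levels are CPM with TMM scaling. Tests were edgeR 4.0.16 quasi-likelihood F tests (limma 3.58.1, R 4.3.3) over all 18 libraries, after its filter on low counts, with a prior count of 2 for log2 values and Benjamini-Hochberg adjustment over all 17545 genes. A gene was called when its adjusted p was below 0.05. Approximate standard errors came from dividing the absolute log2 difference by the root of F. The 9 comparisons were D3, D5, D8, rES and ESC with EpiSC, rES with ESC, and each step from D3 to rES. The fit was tested on simulated counts. Alternatives were RLE scaling, no filter, DESeq2 1.42.0, the 2 groups alone, a replicate block, counts divided by 4, and each library left out. Floors and the bounds from them cover counting error only. The standard errors come from the fit and include the spread among these libraries, and SDs are over the 3 libraries of a group. Levels are compared between genes only per kilobase of union exon length.

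All 36 members are named. Of the other lists, up to 3 called genes per comparison with at least 5 CPM in a group are named, those with the largest difference. Trim28, Dnmt1 and the oxidase genes Tet2 and Tet3 are given besides for the transient days. The members and lists were chosen with earlier results of these data known. Ascl2 and Dcn, imprinted themselves, are left out of the marker sums.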

Additional observations from a re-analysis of the deposited data

How the results depend on the processing

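None of the 18 counts of members called higher or lower moved by over 1.5 times under any alternative. No member value that was called in the main fit or in the alternative changed sign. Sign changes of values called in neither were not counted. Without single libraries, the count higher at D8 than at D5 ranged from 11 to 14 and the count lower from 5 to 7. With a replicate block, D3 against EpiSC gave 18 higher and 15 lower, and rES against ESC 8 and 13. Same-numbered libraries did not deviate together (median correlation 0.000362 over 45 pairs, -0.282 to 0.245), and only 3 of 18 libraries correlated best with their own number, so no pairing was assumed. Of 3877 recomputed member values, 89 lost their call and 47 gained one, Gnas and Rtl1 holding 12 each, Kcnq1 10 and Airn and Rian 9 each. Airn and Kcnq1 moved by over 1.5 times with DESeq2 and with counts divided by 4, so their levels, calls and, for Airn, bounds are given but no fitted fold. With Snrpn and Snurf summed, chosen after seeing the data, D5 was called lower than D3 (log2 difference -1.07, adjusted p = 0.00462). RLE scaling shifted the median of all genes by at most 0.091 log2, and fitting 2 groups alone by 0.12 for rES against EpiSC. With RLE, 6327 genes were higher and 5762 lower in rES than in EpiSC, against 5590 and 6585 in the main fit. The share of called genes that were higher went from 46.37% to 51.62% for ESC against EpiSC. For rES against ESC it went from 46.55% to 52.26%. The direction of all genes beside which the naive groups are set thus depends on the scaling. Depth limits members near the floor: Rasgrf1, Airn, Kcnq1, Rtl1 and Zim1. It also limits Kcnq1ot1 at D5, Nnat at D3 and Magel2 in rES and ESC.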
